A study of Mus musculus with 16 samples.

Results

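The set described here holds 10 genes out of the 41325 genes in the deposited tables: Myocd, which encodes the coactivator myocardin, Srf, which encodes the serum response factor that myocardin binds, and 8 contractile genes, Acta1, Acta2, Actg2, Tagln, Cnn1, Myh11, Lmod1 and Myl9. They were chosen by name, with the rise of Myocd after interleukin-13 (IL-13) at day 0 already known, to see whether that rise was accompanied or followed by a change in the contractile genes. The comparison of IL-13 with untreated cells at day 0 is therefore given for these genes as a description, without a test. All 10 symbols were found in both tables.

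The cells were immortalized preadipocytes, fat cell precursors kept in culture, of wild-type C57Bl6/J mice. There were 4 groups of 4 libraries: untreated cells at day 0, cells given IL-13 for 16 h at day 0, untreated cells at day 6 of differentiation, and IL-13 pre-treated cells at day 6. IL-13, a type 2 immune cytokine, was thus the only agent that separated the groups of a day, and the labels do not say if the 4 libraries in each group are independent cultures; the p-values therefore reflect only library-to-library spread, possibly technical. Whether the cells are 1 clone is not given in the sources used here.

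Myocardin acts on its target genes through SRF. It binds SRF, which sits on a short A/T-rich element called the CArG box, and the pair drives genes of the smooth muscle contractile apparatus. The related coactivators MRTF-A and MRTF-B respond to actin polymerisation and use the same SRF sites, while the ternary complex factors of the Elk family compete with them and direct SRF to immediate early genes. In fat cell precursors, SRF activity and a contractile, stress fibre-rich state are known to recede as adipocytes form.

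Promoter sequences are shown because CArG boxes are the element that SRF binds. RefSeq (GRCm38.p6) promoters were found for 6 of the 10 genes, Srf, Acta1, Acta2, Cnn1, Lmod1 and Myl9; Myocd, Tagln, Actg2 and Myh11 are named only. Each line gives the 250 bases before the RefSeq start site, 5′ to 3′ on the gene's strand, which is not always the start used in the deposited tables. Capitals mark a CArG box or, in Acta1, Acta2 and Myl9, also a CArG-like element with 1 G or C inside the A/T run, a wider search added after the exact one had found none in Acta2.

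Srf (chr17:46556163-46556412, minus strand): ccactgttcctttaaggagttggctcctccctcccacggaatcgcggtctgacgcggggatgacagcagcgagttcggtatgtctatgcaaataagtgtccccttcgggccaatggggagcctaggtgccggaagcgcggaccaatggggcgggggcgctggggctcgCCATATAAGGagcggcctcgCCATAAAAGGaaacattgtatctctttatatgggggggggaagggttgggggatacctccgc

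Acta1 (chr8:123894776-123895025, minus strand): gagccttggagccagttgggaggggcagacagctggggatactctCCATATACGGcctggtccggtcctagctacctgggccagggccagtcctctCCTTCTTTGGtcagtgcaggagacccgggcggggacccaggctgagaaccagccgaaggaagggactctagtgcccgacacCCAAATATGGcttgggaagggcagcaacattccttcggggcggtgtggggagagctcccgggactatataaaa

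Acta2 (chr19:34255374-34255623, minus strand): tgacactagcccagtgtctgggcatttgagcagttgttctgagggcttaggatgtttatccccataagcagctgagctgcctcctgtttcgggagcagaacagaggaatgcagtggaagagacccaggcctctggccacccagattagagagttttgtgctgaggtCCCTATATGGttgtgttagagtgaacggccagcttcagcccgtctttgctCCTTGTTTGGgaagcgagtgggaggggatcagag

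Myl9 (chr2:156775214-156775463, plus strand): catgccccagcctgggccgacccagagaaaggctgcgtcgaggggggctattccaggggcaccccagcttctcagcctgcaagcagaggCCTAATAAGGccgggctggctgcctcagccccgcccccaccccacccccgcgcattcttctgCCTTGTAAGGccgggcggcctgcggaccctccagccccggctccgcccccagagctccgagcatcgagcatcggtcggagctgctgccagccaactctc

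The Srf window held 2 CArG boxes, 82 and 62 bases before the start. Acta1 held 1 CArG box at 73 bases and CArG-like elements at 205 and 154 bases. Acta2 held no exact CArG box and 2 CArG-like elements, at 84 and 34 bases. Myl9 held 1 CArG box at 161 bases and a CArG-like element at 99 bases, and the windows of Cnn1 and Lmod1 held neither. Of 32851 RefSeq promoter windows of that length, 1.47% held a CArG box, 0.0183% held 2 or more, and 8.59% held a CArG box or a CArG-like element, counting both strands. These matches describe letters in a window and were not tested for binding.

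Library totals ran from 15253031 to 18112087 counts. Adipocyte markers (8 genes such as Adipoq, Fabp4 and Plin1) summed to 444 to 484 CPM (counts scaled to library size, with TMM factors) in untreated cells at day 0 and to 23557 to 25399 CPM at day 6, and preadipocyte markers to 715 to 762 CPM at day 0 (IL-13 cells 374 to 395, 24562 to 26441 and 844 to 877 CPM). At day 6 the preadipocyte markers summed to 636 to 686 CPM in untreated and 604 to 692 CPM in pre-treated cells, lower than at day 0 in both arms. Their list was Pdgfra, Thy1, Dlk1, Ly6a, Cd34, Zfp423 and Pparg, and the sum does not show how each gene changed. Adipocyte markers were thus high on the day labelled as differentiated. Cardiac markers summed to at most 3.36 CPM in any library, with Myh7, Nppa, Myl7 and Tbx5 at 0 counts throughout, and skeletal markers to at most 1.52 CPM, with Myod1, Myf5 and Ckm at 0. Pericyte markers, which include genes that fibroblasts also express, summed to 575 to 631 CPM in untreated cells and 576 to 599 CPM in IL-13 cells at day 0, and to 111 to 134 and 110 to 130 CPM at day 6, with Kcnj8 at 0 throughout; their part in the results was not tested. The mean log2 CPM of the nuclear RNAs Malat1, Neat1 and Firre was lower in all 4 IL-13 libraries than in all 4 untreated ones, at 2.95 ± 0.357 against 5.09 ± 0.812 at day 0 and 4.37 ± 0.502 against 6.54 ± 0.637 at day 6 (SD, n = 4), and its part in the IL-13 comparisons was not tested.

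Myocd (ENSMUSG00000020542, chromosome 11, 65176561 to 65269989, minus strand, GRCm38) encodes the coactivator itself. At day 0 the 4 untreated libraries held 13, 9, 15 and 8 counts, and the 4 IL-13 libraries held 233, 218, 229 and 235. The level was 0.628 ± 0.185 CPM without and 14.1 ± 0.634 CPM with IL-13 (SD, n = 4). All IL-13 libraries lay far above all untreated ones, with a log2 fold change of 4.46 (SE 0.15), or 22.0-fold, the 15th largest rise among 12274 genes. At day 6 the libraries held 0, 2, 3 and 0 counts without and 0, 1, 1 and 0 counts with pre-treatment, so the IL-13 difference was not detectable at this depth: the ratio of 2 to 5 counts was 0.402, with an exact 95% interval of 0.0383 to 2.46 that covers counting error only.

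**Figure D1:**
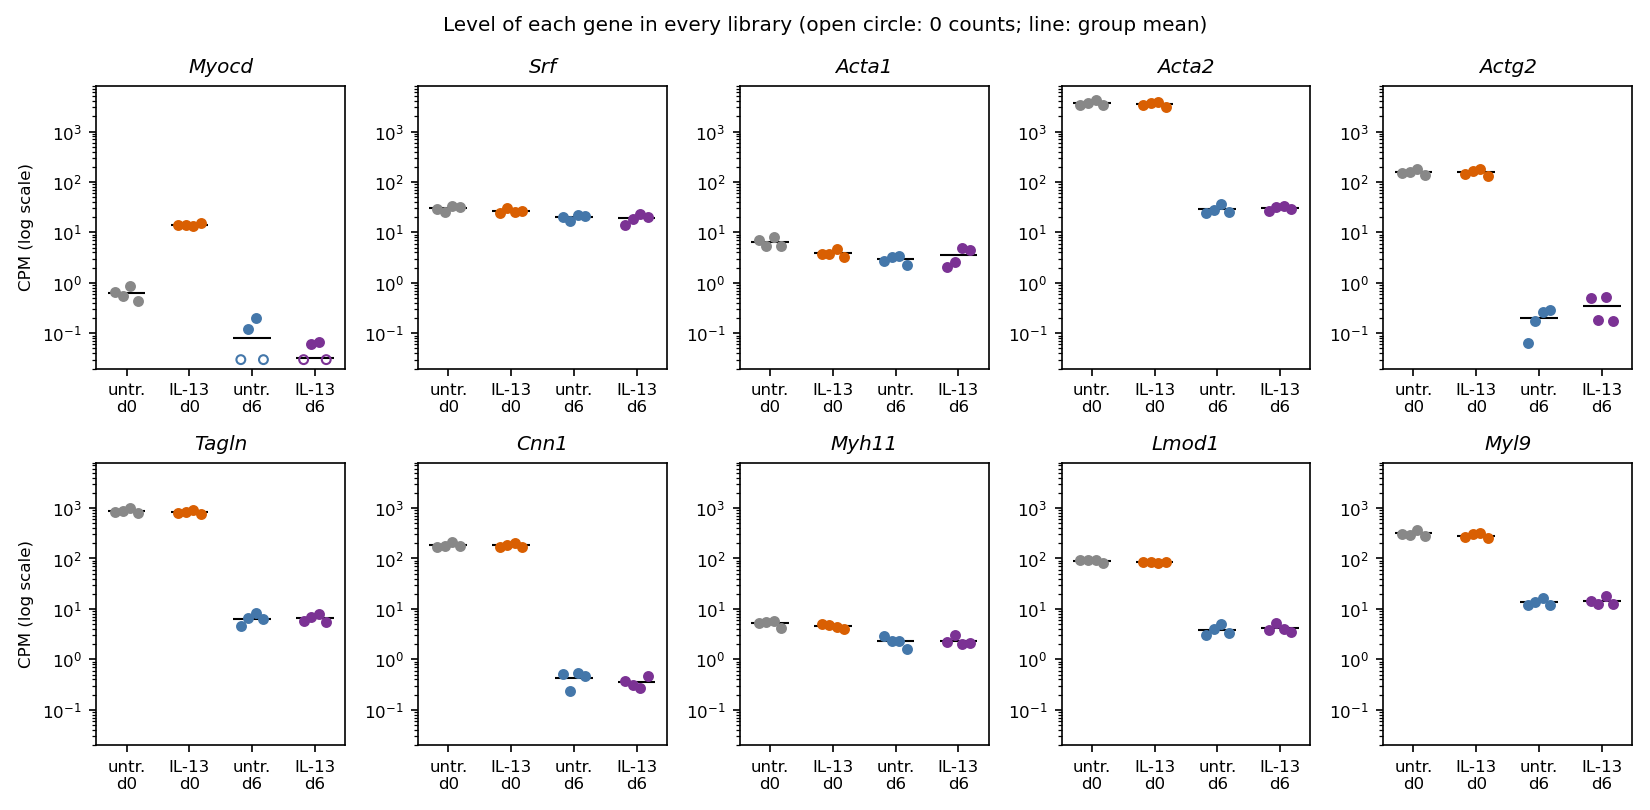
Level of each of the 10 genes in every library, in CPM on a log axis, with 4 libraries per group; the line is the group mean and an open circle at the bottom marks a library with 0 counts. Myocd stands apart in the 4 IL-13 libraries of day 0, near 14.1 CPM, while Acta2, Actg2, Tagln and Cnn1 sit at similar levels in both day 0 groups and far lower in both day 6 groups.

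Srf (ENSMUSG00000015605, chromosome 17, 46548329 to 46556175) encodes the DNA-binding partner. Its counts at day 0 were 573, 415, 577 and 596 in untreated and 406, 480, 428 and 423 in IL-13 libraries, which overlapped. The level was 30.0 ± 3.37 against 26.8 ± 2.65 CPM, a log2 fold change of -0.18 (SE 0.09). No IL-13 library of day 0 exceeded the highest untreated library, so no rise of Srf was seen beside that of Myocd.

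Acta2 (ENSMUSG00000035783, chromosome 19, 34241090 to 34255336), smooth muscle alpha-actin, was among the most abundant transcripts of the day 0 cells. Its CPM was 3312, 3647, 4174 and 3301 in untreated and 3329, 3746, 3901 and 3104 in IL-13 libraries. The groups overlapped throughout, and the log2 fold change was -0.05 (SE 0.09). Acta2 ranked 12 to 13 by count in untreated and 17 to 21 in IL-13 libraries of day 0.

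Acta1 (ENSMUSG00000031972, chromosome 8, 123891769 to 123894751), skeletal alpha-actin, was the 1 contractile gene whose groups were apart at day 0. It held 7.02, 5.42, 8.18 and 5.46 CPM in untreated and 3.65, 3.80, 4.69 and 3.19 CPM in IL-13 libraries. All IL-13 libraries were below all untreated ones, a log2 fold change of -0.78 (SE 0.16). Of the stretches of 50 bases in its exons, 2.02% also occur in other genes, among them the actin genes Actb and Actg1. Actb held 47645 to 61517 counts in the untreated libraries of day 0, against 88 to 142 for Acta1. How many of the Acta1 reads came from these genes was not tested.

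The remaining contractile genes were close in both day 0 groups. Actg2 (ENSMUSG00000059430, chromosome 6, 83512905 to 83536265), the gamma-actin of visceral smooth muscle, held 153, 155, 177 and 139 CPM in untreated and 146, 167, 178 and 129 CPM in IL-13 libraries. Cnn1 (ENSMUSG00000001349, chromosome 9, 22099216 to 22109630), calponin 1, an actin-binding regulator of contraction, held 171, 176, 210 and 175 CPM and 168, 186, 204 and 166 CPM. Tagln (ENSMUSG00000032085, chromosome 9, 45929619 to 45936058), transgelin or SM22-alpha, held 827, 882, 997 and 791 CPM and 815, 839, 919 and 772 CPM. The groups overlapped for each of these genes. For Tagln, 67.9% of the exon bases lie opposite Pcsk7 and Gm48529, and whether counting used the strand is not given in the sources used here, so its reads cannot be told apart from theirs.

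Myl9 (ENSMUSG00000067818, chromosome 2, 156775420 to 156781658), the regulatory light chain of smooth muscle myosin, held 308, 296, 373 and 274 CPM in untreated and 271, 299, 322 and 249 CPM in IL-13 libraries (log2 fold change -0.15, SE 0.09). Lmod1 (ENSMUSG00000048096, chromosome 1, 135324807 to 135368065), leiomodin 1, an actin filament nucleator, held 91.5, 94.6, 91.8 and 82.5 CPM against 85.1, 83.7, 82.3 and 84.4 CPM (-0.12, SE 0.05). Myh11 (ENSMUSG00000018830, chromosome 16, 14194535 to 14291372), the smooth muscle myosin heavy chain, held 5.33, 5.48, 5.87 and 4.23 CPM against 5.03, 4.75, 4.33 and 3.96 CPM (-0.22, SE 0.13). In Lmod1 and Myh11 the overlap came from untreated library 4, the lowest of its group. Over the 8 contractile genes the log2 fold changes ran from -0.78 to -0.02 with a median of -0.10, beside a median of -0.01 over all genes tested. No overlap between the groups occurred for 2 of the 10 genes, Myocd above and Acta1 below, where 40.4% of all tested genes had none. Without untreated library 4 that count was 4, with Myh11 and Lmod1 added below.

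Scaling bears on these small differences. Under total count scaling the median of all genes was -0.13, and Acta2, Actg2 and Cnn1 at day 0 ranged from -0.17 to 0.05 over the alternatives. In the authors' deposited TPM, which also scales by length, Acta2 was 7447 ± 456 in untreated and 6273 ± 389 in IL-13 libraries of day 0 (SD, n = 4). In TPM, 8 of the 10 genes had no overlap between the day 0 groups, Myocd above and 7 of the 8 contractile genes below, where 46.4% of all tested genes had none (8.39% above and 38.0% below). The exceptions were Actg2, whose groups met at 347 TPM, and Srf. The median log2 ratio of mean TPM was -0.29 over the 8 contractile genes and -0.21 over all tested genes, so on this scale most genes, the contractile ones among them, stood lower with IL-13.

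**Figure D2:**
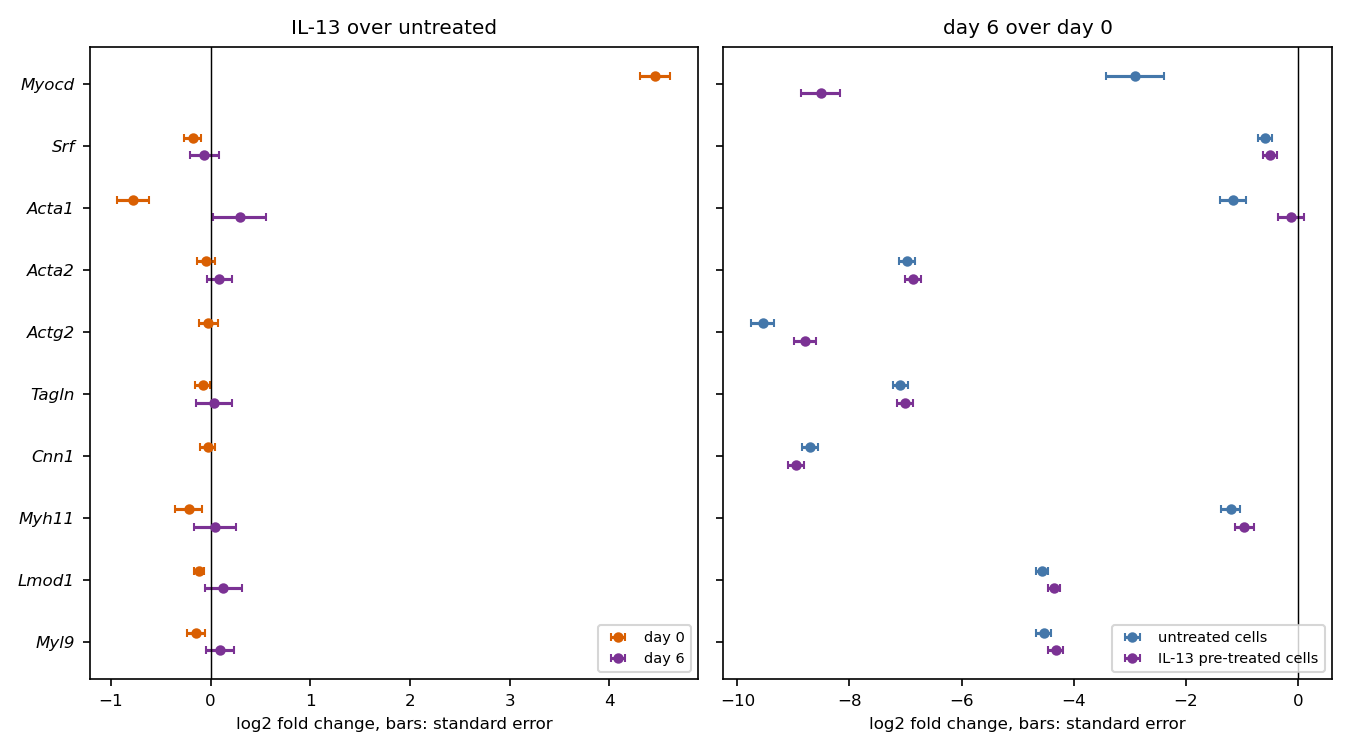
Log2 fold change of each of the 10 genes with its standard error (bars), for IL-13 over untreated cells on each day (left) and for day 6 over day 0 in untreated and IL-13 pre-treated cells (right). At day 0 Myocd lies at 4.46 and the 8 contractile genes between -0.78 and -0.02; Myocd, Actg2 and Cnn1 have no day 6 point on the left because they were under the filter on low counts.

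At day 6 the question is whether the contractile genes differed later, in cells that had held high Myocd. Of the 10 genes, 7 passed the filter on low counts and 0 were called (edgeR, adjusted p under 0.05), where 6.55% of 12352 tested genes were; 0 of the 7 had an unadjusted p under 0.05, and DESeq2 called 0. Acta2 held 24.5, 28.4, 36.4 and 25.3 CPM in untreated and 26.5, 32.6, 32.8 and 28.6 CPM in pre-treated libraries, which overlapped (log2 fold change 0.09, SE 0.13, adjusted p = 0.693). Acta1 held 2.77, 3.33, 3.37 and 2.26 CPM against 2.10, 2.60, 4.95 and 4.55 CPM (0.29, SE 0.27, adjusted p = 0.504). Srf lay at -0.06 (SE 0.15, adjusted p = 0.823), and the others, Tagln, Myh11, Lmod1 and Myl9, between 0.04 and 0.13. A p that misses the threshold does not show that the groups were alike. The IL-13 effect at day 6 minus that at day 0, given as a description because it includes the contrast that chose the genes, was -5.61 (SE 1.16) for Myocd and 1.04 (SE 0.32) for Acta1 on the log2 scale, and -0.26 to 0.76 for the other 8. By edgeR's test of that difference 8.06% of 13157 genes were called, from which nothing is read for the set.

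Actg2 and Cnn1 were too low at day 6 for the test. Actg2 had 22 counts in the 4 pre-treated libraries together and 13 in the untreated ones, a ratio of 1.70 with an exact 95% interval of 0.820 to 3.68. Cnn1 had 23 against 28 counts, a ratio of 0.826 with an interval of 0.455 to 1.49. Both intervals include 1 and cover counting error only.

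Over the 6 days the 7 genes that also passed the filter on low counts at day 6 all fell in untreated cells, where 39.0% of 13157 tested genes fell and 41.5% rose. Myocd, Actg2 and Cnn1 passed the filter through day 0 libraries alone, where Myocd held 218 to 235 counts with and 8 to 15 without IL-13, so they are left out of that count. The day 0 libraries of this comparison were also in the one that chose the genes. In bulk samples, fewer cells of a type and less RNA per cell cannot be told apart. Acta2 dropped from a mean of 3608 ± 410 CPM to 28.6 ± 5.45 CPM (SD, n = 4), a log2 fold change of -6.98 (SE 0.14, edgeR adjusted p = 8.51e-20), or 126-fold. Every day 6 library of Acta2 lay far below every day 0 library, as was so, by any amount, for 36.6% of tested genes. Actg2 and Cnn1 are given as a description without a test, since only their high day 0 values brought them past the filter. Actg2 went from 156 ± 15.8 to 0.199 ± 0.102 CPM (-9.55, SE 0.21), and Cnn1 from 183 ± 18.1 to 0.436 ± 0.135 CPM (-8.70, SE 0.14).

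Tagln fell by 7.09 on the log2 scale (SE 0.14, adjusted p = 9.63e-20). Lmod1 and Myl9 fell less (-4.56, SE 0.11, and -4.53, SE 0.14), to 3.82 ± 0.855 and 13.5 ± 2.25 CPM. Myh11 (-1.20, SE 0.17) and Acta1 (-1.16, SE 0.22) fell little, both from low levels of 5.23 ± 0.704 and 6.52 ± 1.33 CPM. Srf fell by 0.59 (SE 0.13, adjusted p = 2.98e-04), and Myocd went from 45 to 5 counts in all, given as a description, an 8.12-fold lower level with an exact 95% interval of 3.23 to 26.2 for counting error. The genes of the set thus differed widely in how far they fell.

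In IL-13 pre-treated cells 6 of the same 7 genes fell, where 40.3% of tested genes did; the IL-13 libraries of day 0 were also in the comparison that chose the genes. Acta1 was the exception (-0.12, SE 0.23, adjusted p = 0.653) between 3.84 ± 0.625 CPM at day 0 and 3.55 ± 1.41 CPM at day 6. Myocd, whose high day 0 values chose the set, went from 915 counts in all at day 0 to 2 at day 6, a 453-fold lower level with an exact 95% interval of 125 to 3750 for counting error. The log2 fold change was -6.87 (SE 0.14) for Acta2 and -7.01 (SE 0.14) for Tagln. It was -4.35 (SE 0.10) for Lmod1, -4.32 (SE 0.14) for Myl9, -0.96 (SE 0.17) for Myh11 and -0.50 (SE 0.13) for Srf. The pattern of large falls in Acta2 and Tagln and small ones in Myh11 and Srf was thus seen in both arms. As a description, the value was -8.79 (SE 0.19) for Actg2 and -8.96 (SE 0.15) for Cnn1, which passed the filter through day 0 alone.

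Compared per length in the authors' deposited TPM, the order at day 0 in untreated cells was Acta2, Tagln (1617 ± 82.8), Myl9 (990 ± 93.3), Actg2 (369 ± 20.7), Cnn1 (246 ± 14.8), Lmod1 (84.1 ± 4.00), Srf (38.3 ± 4.64), Acta1 (15.6 ± 2.77), Myh11 (2.53 ± 0.249) and Myocd (0.358 ± 0.0914). No 2 neighbours in that order overlapped in their mean ± SD. At day 6 Acta2 remained the highest of the set at 51.3 ± 9.18 TPM, followed by Myl9 at 37.2 ± 5.86 TPM and Srf at 22.0 ± 2.37 TPM, and the mean ± SD of Acta2 and Myl9 overlapped there.

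The make-up of the actins changed with the days. Of the summed TPM of 6 actin genes, Acta2 took 52.4 ± 0.533% in untreated and 53.8 ± 0.724% in IL-13 libraries of day 0, and 3.15 ± 0.590% and 2.88 ± 0.346% at day 6 (SD, n = 4). Actb, the cytoplasmic beta-actin, took 28.9 ± 0.384% in untreated cells at day 0 and 67.6 ± 1.23% at day 6. Actc1, cardiac alpha-actin, was listed at 0 in all libraries of day 0. Among the calponins, Cnn1 took 15.9 ± 0.297% of the TPM of Cnn1, Cnn2 and Cnn3 in untreated cells at day 0 and 0.537 ± 0.178% at day 6.

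**Figure D3:**
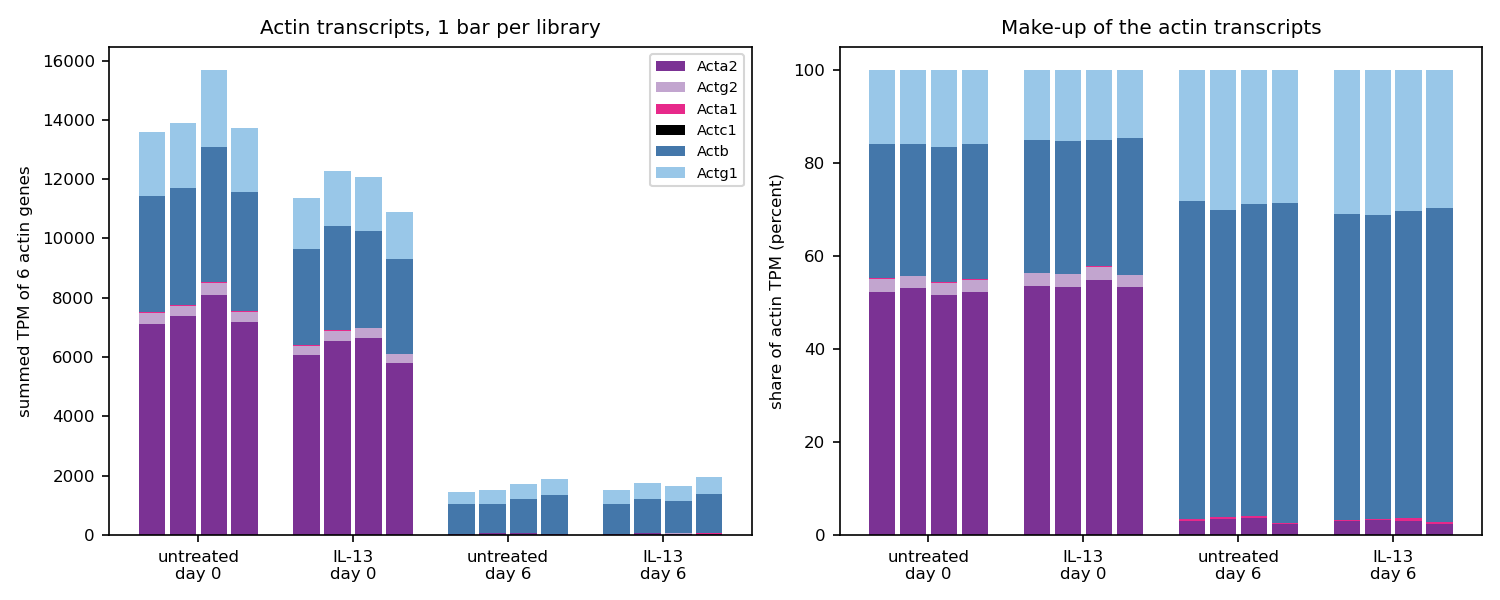
Summed TPM of 6 actin genes (left) and the share of each in it (right), from the authors' deposited TPM, with 1 bar per library. Acta2 makes up 52.4% of the actin TPM in untreated cells at day 0 and 3.15% at day 6, with 53.8% and 2.88% in the IL-13 libraries.

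The other SRF coactivators and the ternary complex factors, genes outside the set, were tested at day 0, where 47.9% of 12274 genes were called (edgeR, adjusted p under 0.05), 23.7% higher and 24.2% lower. Of 5 genes, 0 rose and 2 fell: Mkl2, which encodes MRTF-B (log2 fold change -0.57, SE 0.06, adjusted p = 3.91e-06), and the ternary complex factor Elk4 (-0.78, SE 0.12, adjusted p = 3.27e-04). Mkl1, which encodes MRTF-A, lay at -0.12 (adjusted p = 0.186) and passed the test without untreated library 2 (-0.17, adjusted p = 0.0482) and under total count scaling, where 4 of the 5 fell. Over the days in untreated cells 4 of the 5 fell, where 39.0% of all tested genes fell and 41.5% rose. Mkl1 lay at -1.78 and Mkl2 at -1.37, while Elk4 rose by 0.61. At day 6 edgeR called 0 of the 5 for IL-13, where it called 6.55% of all tested genes. Of the 5, 1 had an unadjusted p under 0.05, and DESeq2 called 1.

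Of 16 tested partners and restraints of myocardin and SRF, 4 rose and 5 fell at day 0, beside 23.7% and 24.2% of all tested genes. Klf4, a zinc-finger factor that restrains smooth muscle genes, rose from 30.6 ± 1.50 to 109 ± 3.74 CPM (1.82, SE 0.05, adjusted p = 6.23e-13). The GATA factor Gata6 rose by 1.27 (SE 0.06). Mef2c, a MADS-box factor, fell by 1.12 (SE 0.10), and Fhl2, a LIM-domain protein that binds SRF, fell by 0.82 (SE 0.05). At day 6 Klf4 stood at 4.62 ± 0.486 and 4.60 ± 1.20 CPM, and 1 gene of the list was called, Scai, a restraint of MRTF-A (-1.10, SE 0.23, adjusted p = 0.0249), a call lost when untreated library 1 or 2, or pre-treated library 2, 3 or 4, was left out (adjusted p = 0.0606 to 0.0908). DESeq2 called 3 of the 16 at day 6, and 5 had an unadjusted p under 0.05. Of all genes tested at day 6, edgeR called 6.55%.

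Of 30 other smooth muscle contractile genes tested at day 0, 7 rose and 15 fell, beside 23.7% and 24.2% of all tested genes. Their median was -0.16. Mylk, the myosin light chain kinase, rose by 0.46 (SE 0.06), and the cytoskeletal Smtn by 0.28 (SE 0.08), a call lost under total count scaling (0.16, adjusted p = 0.0955). Tpm1, a tropomyosin, fell by 0.42 (SE 0.05), as did Ppp1r12b, a myosin phosphatase subunit (-0.79, SE 0.07), and Pdlim5 (-0.61, SE 0.05). Under total count scaling the split was 3 up and 18 down, and without untreated libraries 1 and 4 it was 3 and 13. Over the days in untreated cells 24 of 31 fell and 7 rose, beside 39.0% and 41.5% of all tested genes; Tpm2 fell by 4.44 (SE 0.15), while desmin (Des) rose by 2.07 (SE 0.16). At day 6, Ppp1r12b was the 1 gene called of 28 (-0.54, SE 0.11, adjusted p = 0.0214), a call lost without untreated library 1 or 2 or pre-treated library 2 or 4 (adjusted p = 0.0540 to 0.0879). DESeq2 called 2 of the 28, and 5 had an unadjusted p under 0.05. The edgeR share over all genes tested at day 6 was 6.55%.

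A list of 22 general targets of MRTF and SRF held cytoskeletal genes and others such as Ctgf and Cyr61. Of the 22, 2 rose and 6 fell at day 0, beside 23.7% and 24.2% of all tested genes. The number that rose was 5 without untreated library 3, 1 without untreated library 2 or 4 or IL-13 library 1 or 2, 1 with all 16 libraries in 1 fit, 4 with DESeq2 and 5 with a replicate block. Ctgf, a matrix-associated growth factor, fell from 194 ± 24.9 to 82.0 ± 4.24 CPM (-1.26, SE 0.08, adjusted p = 3.38e-08), as did Ankrd1 (-0.81, SE 0.07) and vinculin, Vcl (-0.65, SE 0.05). Actb (-0.12, adjusted p = 0.263) and Actg1 (-0.18, adjusted p = 0.125) did not pass the test, though both did under total count scaling, which gave 1 rise and 14 falls. Over the days in untreated cells 21 of 22 fell, where 39.0% of all tested genes did, and 0 rose (1 rose without untreated library 3 of day 0). The falls were largest for Ctgf (-8.11, SE 0.19) and Ankrd1 (-7.47, SE 0.17). They were smallest for the cytoskeletal genes Actn4 (-0.84, SE 0.08) and Vcl (-0.82, SE 0.05). At day 6 edgeR and DESeq2 each called 0 of 21, where edgeR called 6.55% of all tested genes. Of the 21, 5 had an unadjusted p under 0.05.

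A list of 12 genes held mostly immediate early genes but also Srfbp1. Of the 12, 9 fell at day 0 and 0 rose, beside 24.2% and 23.7% of all tested genes. Among those that fell were Nr4a1 (-1.57, SE 0.15, adjusted p = 1.23e-06), Fos (-1.08, SE 0.26, adjusted p = 0.00342) and Egr2 (-0.95, SE 0.12). Only 1 of these 9 calls was kept when all 16 libraries shared 1 estimate of spread, and 4 were kept without untreated library 1. At day 6 edgeR and DESeq2 each called 0 of 11, where edgeR called 6.55% of all tested genes. Of the 11, 0 had an unadjusted p under 0.05. In the actin-polymerisation list 5 of 15 rose and 5 fell at day 0, beside 23.7% and 24.2% of all tested genes. The split was 3 and 7 under total count scaling, 3 and 3 without untreated libraries 1 and 4, and 5 and 3 with all 16 libraries in 1 fit, and 3 rose without untreated library 2 or 4 or IL-13 library 1, 2 or 3. The list was led by the cofilin kinase gene Limk1 (1.06, SE 0.06) and Rock1 (-0.55, SE 0.10). At day 6 edgeR called 0 of 15, where it called 6.55% of all tested genes. Of the 15, 3 had an unadjusted p under 0.05, and DESeq2 called 1.

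**Figure D4:**
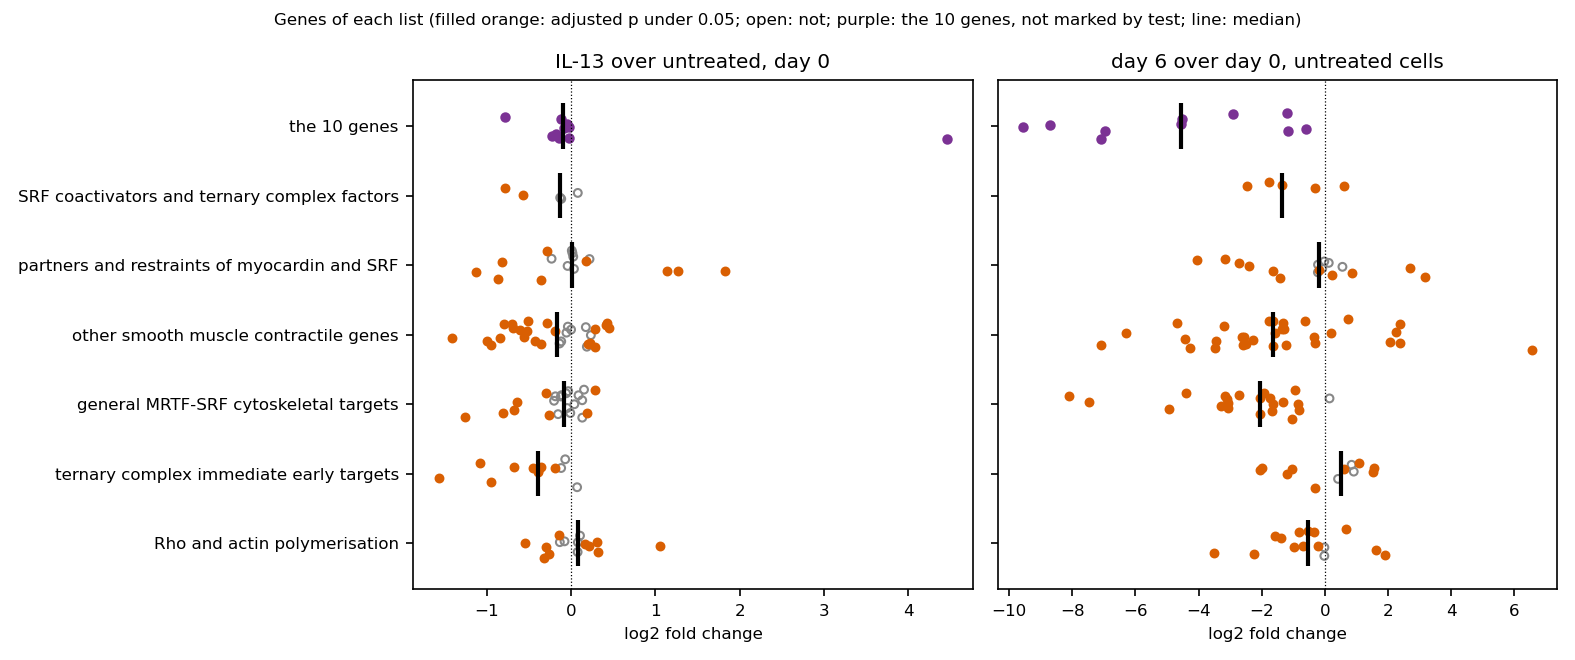
Log2 fold change of each tested gene of the set and of 6 lists of related genes, for IL-13 over untreated cells at day 0 (left) and day 6 over day 0 in untreated cells (right). Filled orange points passed the test at an adjusted p under 0.05, open points did not, purple points are the 10 genes of the set (not marked by test), and black lines are medians. The genes listed as general MRTF-SRF targets lie mostly below 0 on the right, with a median of -2.06.

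The genes whose log2 CPM was most like that of Myocd over the 16 libraries, out of 10693, were Tmem26 (Pearson r = 0.983), Slc9a9 (0.983), Enpp1 (0.983), Serpinb9 (0.980) and Ust (0.979). The other 9 genes of the set had r from 0.248 for Acta1 to 0.810 for Acta2. The points share library depth and the fall over the days, and they lie in groups by day and treatment, so they are not independent. Myocd was high only with IL-13 at day 0, the values that chose the set, so the ranking favours genes that rose there. Tmem26, Slc9a9, Enpp1, Serpinb9 and Ust each rose there by at least 1.40 (log2) in every fit that left a library out. Acta2 ranged from -0.099 to 0.029 in those fits, so its r of 0.810 does not show a rise with Myocd after IL-13. A ranking within day 6 is not given, since Myocd had 7 counts in those 8 libraries.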

How the data were processed

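Polyadenylated RNA was sequenced from 16 libraries, 4 per group, per the labels. The authors deposited, per the file headers, a whole-number count and a TPM value for each of 41325 genes in 2 tables, for day 0 and day 6; the genome build was mm10 per the submitters' processing notes, and for the aligner, counter and strand setting: not given in the sources used here. Counts were tested with edgeR 4.0.16 in R 4.3.3 (quasi-likelihood, robust, TMM scaling, filterByExpr with a minimum count of 10 and minimum total of 15), with Benjamini-Hochberg adjustment over all genes tested and calls at an adjusted p under 0.05. IL-13 comparisons used the 8 libraries of a day, day comparisons all 16. SE was taken as the absolute log2 fold change over the root of F. No pair of libraries in a group agreed within sampling noise. On simulated counts, 98 of 100 genes changed 2-fold were recovered for IL-13 at day 0, 100 of 100 at day 6, and 97 of 100 for the day change in untreated cells. The simulation gave every gene the same set spread and changed no gene of low level. It therefore checks the procedure and does not measure power in the real libraries, whose spread differs.

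The 10 genes and the 6 lists (111 entries) were chosen with earlier results of these data known. Named were all 10 genes, up to 4 called genes of each list with the smallest p in each IL-13 comparison, a panel of regulators and contractile genes, and the 5 genes most like Myocd (log2 CPM, prior count 2); 1 gene that the rule names is not reported here. Promoters came from RefSeq. Alternatives were other scaling, no filter, DESeq2 1.42.0, a replicate block, and libraries left out. Fits without a library of a group outside the pair compared, and all alternatives for the count of genes without overlap, were chosen after seeing the data.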

Additional observations from a re-analysis of the deposited data

Results flagged for a closer look

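Of the 40 groups of 4 libraries over the 10 genes, 1 had a library far from the other 3 by Dixon's test at the 95% level: Cnn1 in untreated library 3 of day 0, at 210 CPM. Chance flags about 1 in 20 groups.

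Over the 43 other genes named or tested, 21 of 172 groups had such a library. In both day 6 groups library 4 was the high one for immediate early genes and Cyr61: Cyr61 at 138 and 131 CPM in untreated and pre-treated cells, Fos at 13.3 and 14.6, Egr1 at 304.8 and 294.6, Egr2 at 69.9 and 65.4, Nr4a1 at 28.9 and 27.98, and Btg2 at 94.7 in untreated cells. Mylk (25.9 CPM) and Vcl (300.5 CPM) stood apart in the same untreated library. The others were Elk3 in untreated library 3 of day 6 (27.9 CPM), Klf5 in IL-13 library 2 of day 0 (0.127), Gata6 in untreated library 3 of day 0 (30.2), Mef2c in pre-treated library 1 of day 6 (2.97), Cald1 in IL-13 library 4 of day 0 (1074), Des in IL-13 library 3 of day 0 (4.27), Slc9a9 in pre-treated library 4 of day 6 (2.10) and Enpp1 in pre-treated library 2 of day 6 (14.8).

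The IL-13 effect differed between the days for 16 of these genes (edgeR interaction, adjusted p under 0.05, day 6 minus day 0, log2). Of the 16, 9 had been named for a small p in an IL-13 comparison and 5 for likeness to Myocd, which is itself high with IL-13 at day 0, so these differences are partly set by that choice and their number is not read against the share of all genes. It was lower at day 6 for Klf4 (-1.83), Gata6 (-1.30), Mylk (-0.71), Limk1 (-1.04), Tmem26 (-3.04), Slc9a9 (-1.68), Enpp1 (-2.08), Serpinb9 (-1.41) and Ust (-1.43), of which the last 5 are those named for likeness. It was higher for Mef2c (0.69), Fhl2 (0.67), Tpm1 (0.38), Pdlim5 (0.44), Mrvi1 (0.72), Vcl (0.60) and Amotl2 (0.70). The call for Mef2c (adjusted p = 0.0438) was lost in 7 of the fits that left out 1 library (adjusted p = 0.0508 to 0.0932).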

How the results depend on the processing

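The count of the 10 genes called for IL-13 at day 6 was 0 under every alternative run. Of the 7 genes that passed the filter on low counts at day 6, 7 fell over the days in untreated cells and 6 in IL-13 cells. That held under every alternative, beside 39.0% and 40.3% of all tested genes in the main fit. Myocd, Actg2 and Cnn1, which passed the filter through day 0 alone, are left out of these counts. The count of genes without overlap at day 0 was 2, 8 in the authors' TPM, and 2 to 4 with 1 library left out (4 without untreated library 4, and 4 without untreated libraries 1 and 4). The number of all genes called for IL-13 at day 0 was 5881, and 3485 without untreated libraries 1 and 4. For IL-13 at day 6 it was 809, and 1436 with DESeq2, 1405 with all 16 libraries in 1 fit, 2 without untreated libraries 1 and 2, and 60 to 2328 with 1 library left out, so the day 6 calls rest on few libraries. Total count scaling moved the split to 1682 higher and 4523 lower at day 0 (from 2912 and 2969) and to 53 and 1032 at day 6 (from 273 and 536), and DESeq2 size factors moved the split of the difference between the days to 509 and 505 (from 410 and 651).

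The replicate numbers were not treated as pairs in the main fits. Same-numbered libraries correlated at -0.0431 to 0.180 at day 0 and 0.00611 to 0.215 at day 6. Differently numbered ones correlated at -0.171 to 0.106 and -0.22 to 0.269. On each day 3 of 4 correlated best with their own number. Whether same-numbered libraries were handled together is not given in the sources used here and was not tested. With a replicate block, 2812 genes were called for IL-13 at day 6 and 1608 for the difference between the days.

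Values that changed sign had not passed the test or, for the 10 genes at day 0, were not tested. Under total count scaling these were Acta2 (-0.0019), Tagln (-0.052) and Myh11 (-0.044) at day 6, and Elk3 (-0.038), Foxo4 (-0.110) and Synpo2 (-0.119) at day 0. Without untreated libraries 1 and 2 they were Acta2 (-0.034) and Tagln (-0.136) at day 6. With 1 library left out, the value ranged over both signs for Srf (-0.19 to 0.049), Tagln (-0.096 to 0.17), Myh11 (-0.098 to 0.18), Lmod1 (-0.00068 to 0.28) and Myl9 (-0.039 to 0.21) at day 6, for Acta1 over the days in IL-13 cells (-0.29 to 0.098), and for Acta2 (-0.099 to 0.029), Actg2 (-0.095 to 0.052), Cnn1 (-0.086 to 0.047), Foxo4 (-0.021 to 0.054) and Synpo2 (-0.022 to 0.018) at day 0. The cause was not tested. Depth limits Myocd, Actg2 and Cnn1 at day 6, which had 2 to 28 counts per group.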
